A study of Mus musculus with 18 samples.

Results

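The genes described here are 5 genes of the tendon and ligament lineage, Scx, Mkx, Tnmd, Kera and Tppp3, out of 49184 annotated genes with counts. The rule that chose them is a list of names, written with earlier results of these data known. All 5 passed the filter on low counts. RNA came from cartilage of the femoral condyle of C57bl6 mice, cut from the bone below it and pooled over knees, and labelled as chondrocytes. Per the study's methods the mice were male and 12 weeks old, and 1 knee was loaded at 12 N until the anterior cruciate ligament (ACL) ruptured. The 18 libraries comprised 6 from naïve mice, which were not loaded and carry a day 7 label, 3 from the contralateral and 3 from the injured knees at day 1, and 3 and 3 at day 7. Per the labels, the left knee was the contralateral one and the right knee the injured one. The labels name no other allele, drug or transgene for any group.

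Each library was a pool. For injured and contralateral knees it was of 2 mice at day 1 and 4 at day 7 by the study's scheme. The scheme names a partial loss of cartilage by day 7 as the reason for using 4. The part of this loss in the levels of the members was not tested. The 6 naïve libraries came from 6 mice, and each held 2 knees of the same side. Every naïve library therefore shares mice with another, and n = 6 in this group counts libraries that are not independent. The injured and contralateral knees of a day likewise came from the same mice. The labels do not say which libraries share mice, all were treated as independent, and p-values measure the spread between these pools. The series text gives 4 mice for every sample and names the medial caps. Total estimated counts ranged from 16074762 to 41794005 per library, with a median of 25465706.

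In the GENCODE annotation of GRCm38, Scx (ENSMUSG00000034161) lies at chr15:76457452-76459458 on the plus strand, inside the span of Bop1, a ribosome assembly gene on the minus strand. Mkx (ENSMUSG00000061013) lies at chr18:6934518-7004780 on the minus strand and overlaps the transcript AC148004.2 of the same strand. Tnmd (ENSMUSG00000031250) lies at chrX:133850980-133865577 and Kera (ENSMUSG00000019932) at chr10:97606879-97613692, both on the plus strand. Tppp3 (ENSMUSG00000014846) lies at chr8:105467493-105471526 on the minus strand. All 5 genes code for proteins.

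Tendon and ligament cells arise from progenitors that express Scx, which encodes scleraxis, a basic helix-loop-helix transcription factor. Mkx encodes mohawk, a homeobox factor that promotes the tendon programme. Tnmd encodes tenomodulin, a membrane protein of mature tenocytes, and Kera encodes keratocan, a small leucine-rich proteoglycan that binds collagen fibrils. Tppp3 encodes a protein that binds microtubules and marks cells of the tendon sheath. Articular cartilage is normally built by chondrocytes, which express Col2a1, Acan and Sox9, and in the embryo cells that express both Scx and Sox9 form the attachment of tendon to bone.

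Promoter sequences of RefSeq (GRCm38.p6), from 250 bases before to 50 bases after the annotated start, were read for Tnmd, the member with the largest rise, and for Cnmd, its chondrocyte relative, which was not called. Tnmd was the only member read. No window was read for Scx, Mkx or Tppp3, and that of Kera, wholly inside its GENCODE gene, was left out. Capitals mark matches, on either strand, to the E-box CANNTG, which basic helix-loop-helix factors bind, or to CAGAC, which Smad proteins bind.
Tnmd, chrX:133850758-133851057, plus strand: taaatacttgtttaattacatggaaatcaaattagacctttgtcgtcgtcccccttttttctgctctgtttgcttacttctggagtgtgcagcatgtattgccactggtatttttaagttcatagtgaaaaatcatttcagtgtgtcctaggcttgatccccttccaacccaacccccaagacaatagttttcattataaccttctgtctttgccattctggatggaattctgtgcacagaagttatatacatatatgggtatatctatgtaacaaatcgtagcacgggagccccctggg
Cnmd, chr14:79662134-79662433, minus strand: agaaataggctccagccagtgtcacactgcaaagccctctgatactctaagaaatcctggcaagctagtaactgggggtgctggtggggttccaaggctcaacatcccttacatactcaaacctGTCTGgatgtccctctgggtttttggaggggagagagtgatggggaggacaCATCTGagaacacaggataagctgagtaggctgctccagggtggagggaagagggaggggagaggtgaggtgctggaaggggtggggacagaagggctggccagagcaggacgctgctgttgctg
The RefSeq start of Tnmd lies 28 bases downstream of the GENCODE start and that of Cnmd 13 bases upstream of it. The Tnmd window held no E-box, CAGAC or Egr sequence GCGTGGGCG. The Cnmd window held 1 E-box, CATCTG, and 1 CAGAC match on the opposite strand. The window of Tppp, a relative of Tppp3 that was not called either, held 2 E-boxes and no CAGAC and is not printed. Over the 32851 promoter windows of the table, 72.3% held an E-box, 49.6% a CAGAC and 0.612% the Egr sequence. These are matches of letters in a short window and say nothing of binding elsewhere.

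The labelled tissue was checked against its markers. All 20 chondrocyte markers passed the filter, and Col2a1 was the most abundant of them, with a mean counts-per-million value (CPM) of 3237 in naïve libraries. Other cell types were present too. The 8 erythroid genes summed to 34620 CPM and 13 skeletal muscle genes to 8600 CPM on average in naïve libraries, against 6550 CPM for the chondrocyte markers. The 5 members summed to 52.6 ± 16.4 CPM (SD, n = 6) in naïve libraries and 231 ± 14.9 CPM (n = 3) in day 7 injured libraries. CPM values were scaled with TMM factors, which correct library totals for composition. One library stood apart. In day 7 contralateral replicate 1 the top 10 genes held 42.5% of all counts, and its TMM factor was 0.696, against 1.08 and 1.01 in the other 2 of its group.

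Scx, the lineage factor, was expressed at a low level in all groups but one. In naïve libraries it ranged from 1.73 to 4.10 CPM, with a median of 3.06. The day 1 contralateral libraries held 1.84, 2.25 and 3.20 CPM, and the day 1 injured libraries 2.99, 3.10 and 3.52 CPM. The day 7 contralateral libraries held 2.94, 2.98 and 3.11 CPM, whereas the day 7 injured libraries held 21.1, 22.9 and 23.4 CPM. The lowest day 7 injured library was 5.15 times the highest of the 15 others, and the 4 other groups overlapped.

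Mkx, the second transcription factor, was also highest in day 7 injured libraries, with a smaller step. Naïve libraries ranged from 3.11 to 6.12 CPM, with a median of 3.54. Day 1 contralateral libraries held 2.12, 2.35 and 3.08 CPM, and day 1 injured libraries 3.97, 4.17 and 4.22 CPM. Day 7 contralateral libraries held 2.34, 2.80 and 3.12 CPM, and day 7 injured libraries 9.37, 9.53 and 9.89 CPM. The injured libraries at day 7 differed little from each other, and the lowest was 1.53 times the highest other library, naïve replicate 4. On the TPM scale, which divides by transcript length and carries no TMM factor, the Mkx groups overlapped, with 2.08 to 3.04 TPM in day 7 injured, 1.08 to 2.64 in naïve and 1.84 to 2.61 in day 1 injured libraries.

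Tnmd, the marker of mature tenocytes, rose furthest. Naïve libraries ranged from 4.15 to 13.2 CPM, with a median of 5.50. Day 1 contralateral libraries held 2.41, 3.18 and 3.71 CPM. Day 1 injured libraries were spread widely, at 2.83, 8.24 and 11.3 CPM, and overlapped the naïve range. Day 7 contralateral libraries held 4.98, 5.67 and 6.10 CPM. Day 7 injured libraries held 82.6, 89.1 and 93.3 CPM, and the lowest was 6.24 times the highest other library, again naïve replicate 4.

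Kera, the proteoglycan, varied most outside the injured libraries of day 7. Naïve libraries ranged from 6.96 to 20.5 CPM, with a median of 8.21, and the highest was replicate 4. Day 1 contralateral libraries held 4.55, 5.54 and 5.81 CPM, and day 1 injured libraries 4.76, 9.52 and 13.7 CPM. Day 7 contralateral libraries held 2.80, 6.81 and 8.41 CPM, the lowest in replicate 1, the library that stood apart. Day 7 injured libraries held 40.6, 53.4 and 60.8 CPM, and the lowest was 1.98 times the highest of the 15 others.

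Tppp3, the sheath marker, was the most abundant member outside day 7 injury and had the smallest step. Naïve libraries ranged from 17.9 to 36.6 CPM, with a median of 27.9. Day 1 contralateral libraries held 15.7, 20.1 and 25.4 CPM, and day 1 injured libraries 19.2, 30.5 and 38.8 CPM. Day 7 contralateral libraries held 24.7, 25.8 and 35.2 CPM, and day 7 injured libraries 54.0, 58.4 and 64.9 CPM. The day 7 injured libraries lay above all others in CPM, the lowest being 1.39 times the highest other one, and the 4 other groups overlapped. In TPM the day 7 injured libraries were not above all others, with 21.7, 31.9 and 34.1 TPM in day 7 injured against 14.9, 22.4 and 39.5 TPM in day 1 injured libraries.

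**Figure D1:**
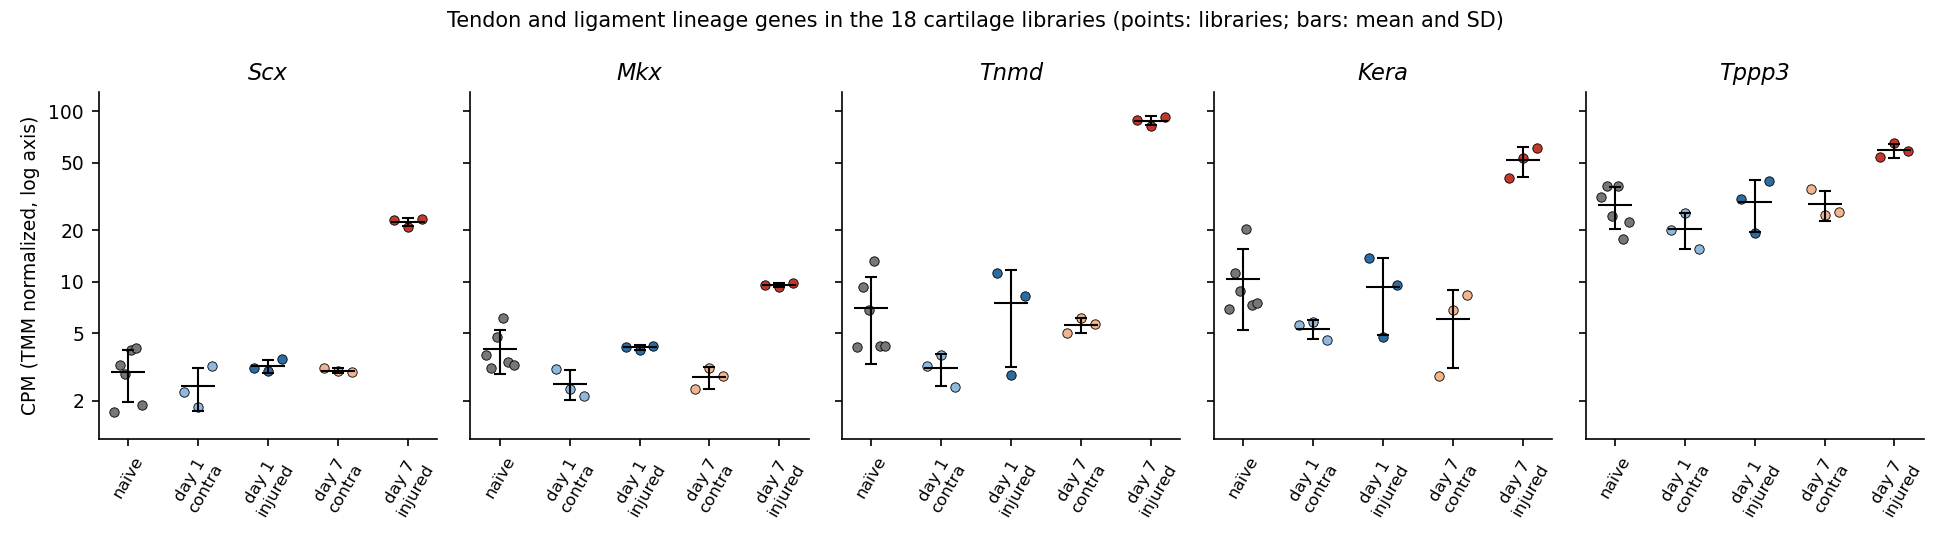
CPM (log axis) of each of the 5 genes in the 18 libraries, by group. Points are libraries and bars are the mean and SD; in every panel the 3 day 7 injured libraries lie above the other 15, from 1.39 times (Tppp3) to 6.24 times (Tnmd) the highest of them.

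Thus for each of the 5 genes every day 7 injured library lay above the 15 others in CPM, a pattern shared by 11.9% of all 21262 genes tested. Compared per length, in TPM, the order among the genes differed between groups. In naïve libraries Tppp3 stood first at 15.4 ± 3.45 TPM (SD, n = 6), followed by Tnmd at 2.95 ± 1.45, Kera at 2.48 ± 1.17, Mkx at 1.62 ± 0.593 and Scx at 1.37 ± 0.528. The last 4 overlapped. In day 7 injured libraries Tnmd, at 31.1 ± 5.20 TPM (n = 3), and Tppp3, at 29.2 ± 6.60, overlapped, as did Kera at 10.3 ± 3.24 and Scx at 9.04 ± 1.40. Mkx was lowest at 2.60 ± 0.485 TPM. In these bulk libraries more cells of a type and more RNA per cell cannot be told apart.

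The first comparison asked which genes changed 7 days after ACL rupture relative to naïve cartilage. Genes counted as called had an FDR no higher than 0.05, by edgeR's quasi-likelihood test with Benjamini-Hochberg adjustment over all genes, and a change of at least 1.5-fold. All 5 members were called higher, where 10.4% of 21129 genes were called higher and 6.11% lower. Tnmd rose 12.8-fold (log2 fold change 3.68, SE 0.370, FDR 2.88e-06), and 0.180% of the genes tested had a larger log2 fold change. Scx rose 7.66-fold (2.94, SE 0.227, FDR 2.17e-07) and Kera 5.01-fold (2.32, SE 0.318, FDR 5.84e-05). Mkx rose 2.38-fold (1.25, SE 0.185, FDR 1.20e-04) and Tppp3 2.13-fold (1.09, SE 0.227, FDR 0.00216), sizes that 4.06% and 5.15% of genes exceeded. The median log2 fold change was 2.32 over the members and -0.04 over all genes tested. Each of the 5 calls held without any single naïve or day 7 injured library, while the 1291 genes called lower were 797 without day 7 injured replicate 3. The split of all calls depended on the scaling, with 63.1% of the called genes higher under TMM, 37.0% under upper-quartile factors and 21.8% under library totals alone, and all 5 members were called higher under each.

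Against the contralateral knees of the same day all 5 members were called higher as well, where 9.33% of 21262 genes were called higher and 3.23% lower. Tnmd rose 15.7-fold (log2 fold change 3.98, SE 0.471), Kera 8.37-fold (3.07, SE 0.447) and Scx 7.47-fold (2.90, SE 0.278). Mkx rose 3.46-fold (1.79, SE 0.231) and Tppp3 2.08-fold (1.05, SE 0.273). Their FDRs by edgeR ran from 1.29e-06 for Scx to 0.0114 for Tppp3. Without day 7 contralateral replicate 2 the Tppp3 call was lost, with a log2 fold change of 0.94 and an FDR of 0.0517. Without replicate 1, which stood apart, all 5 were still called. The 686 genes called lower were 434 and 1058 without contralateral replicates 1 and 3, and 426 and 279 without injured replicates 2 and 3. Of the called genes 74.3% were higher under TMM, 55.2% under upper-quartile factors and 52.4% under library totals alone.

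Against the injured knees of day 1 the 5 members were called higher again, where 9.04% of genes were called higher and 6.38% lower. The log2 fold changes were 3.59 (SE 0.476) for Tnmd, 2.83 (SE 0.285) for Scx, 2.49 (SE 0.401) for Kera, 1.24 (SE 0.222) for Mkx and 1.02 (SE 0.272) for Tppp3. The edgeR FDR was highest for Tppp3, at 0.0137. Without day 1 injured replicate 2, the lowest of its group for Tppp3, that gene's log2 fold change was 0.77 and its FDR 0.0572. Under library totals alone, without TMM, it was 0.57 with an FDR of 0.0762. Under those totals the share of called genes that were higher was 11.6%, against 58.6% under TMM and 33.3% under upper-quartile factors. The 1347 genes called lower were 884 without day 1 injured replicate 3 and 849 and 891 without day 7 injured replicates 2 and 3. These 3 day 7 comparisons share the same injured libraries and are not independent of each other.

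At day 1 no member was called against naïve cartilage. Log2 fold changes lay between -0.16 (Kera, SE 0.341) and 0.11 (Scx, SE 0.248), and the lowest edgeR FDR of the 5 was 0.991. Of all 21129 genes 0% were called in either direction, 959 had an unadjusted p under 0.05, and DESeq2 called 0 higher and 15 lower. Between the injured and the contralateral knees of day 1, the median log2 fold change over all genes was -0.002. The contralateral group of that day was the lowest by mean CPM for each member, as described below. In this comparison the members' 5 values were all above 0 and none was called. They were 1.27 for Tnmd (SE 0.477, unadjusted p = 0.0175 by edgeR), 0.82 for Kera (SE 0.400), 0.71 for Mkx (SE 0.228, unadjusted p = 0.00685 by edgeR), 0.53 for Tppp3 (SE 0.272) and 0.38 for Scx (SE 0.286), all with an FDR of at least 0.755. No gene was called in that comparison by edgeR or DESeq2, and 1383 had an unadjusted p under 0.05.

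The day 1 contralateral libraries were compared with the naïve ones, which carry a day 7 label, so that day and knee cannot be told apart in this comparison. The day 1 contralateral libraries were the lowest group by mean CPM for each of the 5 members. The share of all genes with that order is not given. This group was also lowest by mean summed CPM for several other lists. Among them were the family relatives (1436 CPM), tendon matrix (18190 CPM), chondrocyte (5411 CPM) and synovial fibroblast genes (787 CPM). It was not lowest for erythroid, skeletal muscle or adipocyte genes. Against naïve libraries the log2 fold changes were -1.18 for Tnmd (SE 0.431), -0.98 for Kera (SE 0.358), -0.70 for Mkx (SE 0.202), -0.46 for Tppp3 (SE 0.240) and -0.27 for Scx (SE 0.252). None was called, each with an edgeR FDR of 0.9998, and 0% of genes were called, with 554 at an unadjusted p under 0.05. DESeq2 called 1 gene higher and 1 lower. For Tnmd, Kera and Mkx all 3 day 1 contralateral libraries lay below all 6 naïve ones, as they did for 0.748% of 21262 genes. Day 7 contralateral against naïve libraries gave log2 fold changes from -0.76 (Kera, SE 0.383) to 0.02 (Scx, SE 0.242), none called and the lowest FDR 0.258. No gene was called there by edgeR, with 3220 at an unadjusted p under 0.05, and DESeq2 called 18 higher and 13 lower.

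**Figure D2:**
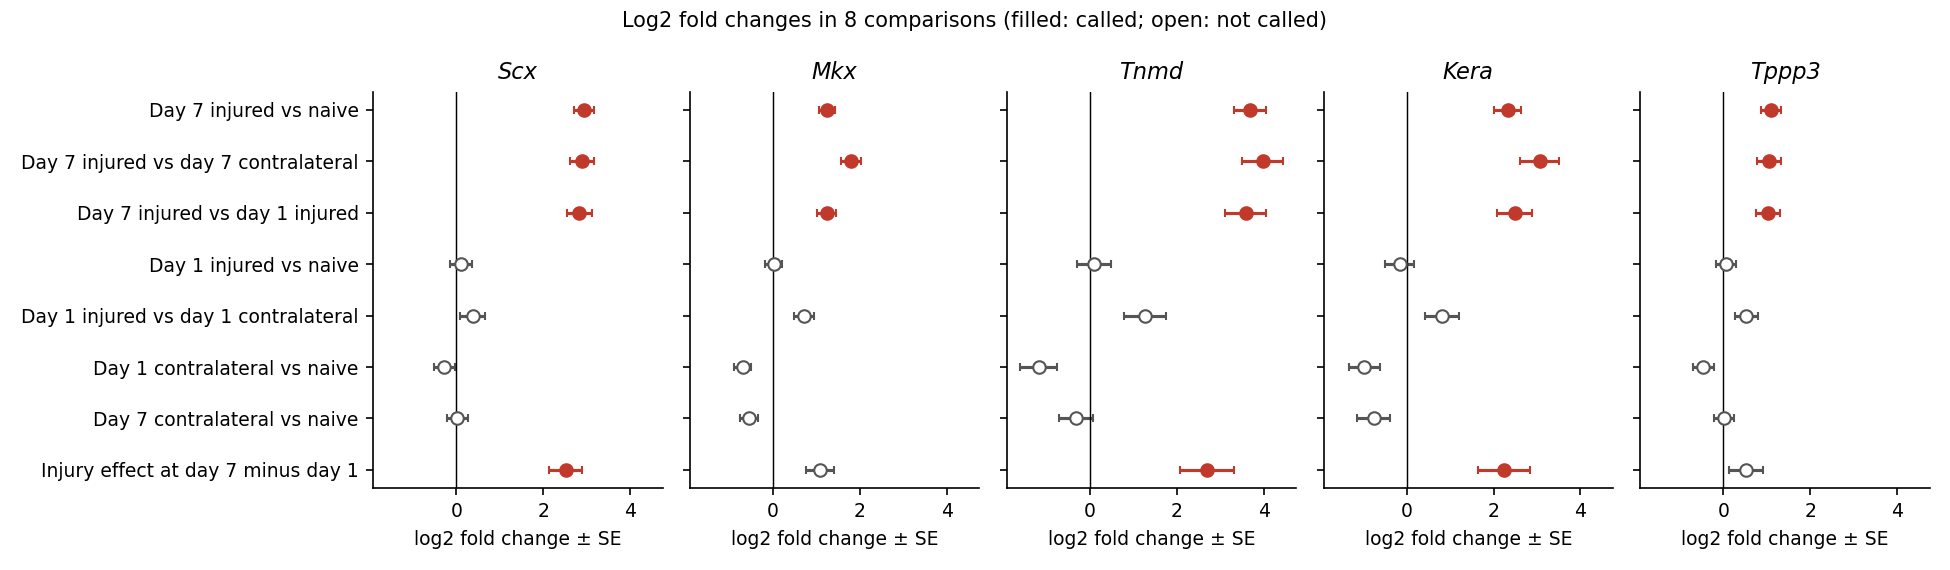
Log2 fold change and SE of the 5 genes in 8 comparisons, from edgeR; filled points were called and open points were not. The 3 comparisons of day 7 injured libraries lie to the right of 0 for all 5 genes, between 1.02 (Tppp3) and 3.98 (Tnmd).

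Whether injury changed a gene more at day 7 than at day 1 was tested as the difference between the 2 injured-minus-contralateral effects, called at the FDR alone. Of all genes 3.72% were called with a larger effect at day 7 and 0.287% with a smaller one. The 791 genes with a larger effect were 486 without day 1 injured replicate 1, 448 without day 1 contralateral replicate 3 and 396 without day 7 injured replicate 3, and the 61 with a smaller effect ranged from 9 to 93 over the 12 omissions, moving by over 1.5 times in 9 of them. Of the members 3 were called. The difference was 2.52 for Scx (SE 0.383, edgeR FDR 8.91e-04), 2.70 for Tnmd (SE 0.628, FDR 0.0205) and 2.25 for Kera (SE 0.603, FDR 0.0446) on the log2 scale. It was 1.08 for Mkx (SE 0.321, FDR 0.0734) and 0.52 for Tppp3 (SE 0.382, FDR 0.543), which were not called. The Scx call held without any single library, with an FDR of at most 0.00423. The Tnmd call was lost without day 1 contralateral replicate 2 (FDR 0.0507) or day 7 injured replicate 3 (FDR 0.0545). The Kera call was lost in 9 of 12 omissions, with FDRs from 0.0661 to 0.123, and held without day 1 injured replicate 1, day 7 contralateral replicate 3 or day 7 injured replicate 1.

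Some pairs of the 5 genes also varied together outside the injured libraries of day 7, with 4 of 10 pairs at an adjusted p under 0.05 for r and 3 for rho. The share of all gene pairs that would pass is not given, so this count does not set the members apart from other genes. Over those 15 libraries the log2 CPM of Tnmd and Kera had a Pearson r of 0.811 (permutation p = 2e-04, adjusted 0.002 over 10 pairs) and a Spearman rho of 0.854 (permutation p = 1.1e-04, adjusted 0.0011). Without the 2 libraries farthest from the Tnmd median r was 0.650, within the 6 naïve libraries 0.951, within the 9 others 0.723, and without day 7 contralateral replicate 1 0.953. Tnmd and Tppp3 had an r of 0.777 (permutation p = 8.4e-04, adjusted 0.0042) and a rho of 0.725 (permutation p = 0.00309, adjusted 0.0154), with 0.775 without the 2 farthest, 0.724 within naïve and 0.806 within the 9 others. Mkx and Kera had an r of 0.742 (permutation p = 0.0017, adjusted 0.00567) and a rho of 0.675 (permutation p = 0.00704, adjusted 0.0235), with 0.555 without the 2 farthest, 0.719 within naïve and 0.651 within the 9 others. For Mkx and Tnmd r was 0.628 (permutation p = 0.0125, adjusted 0.0312) and rho 0.546 (permutation p = 0.0387, adjusted 0.0773), and r was 0.326 without the 2 farthest libraries, 0.642 within naïve and 0.556 within the 9 others, so that its size depends on those 2. For the 4 pairs with Scx, r ran from 0.100 to 0.435, with adjusted p-values of at least 0.177, and within naïve libraries from -0.021 (Tppp3) to 0.574 (Tnmd and Kera). The remaining 2 pairs had an r of 0.363 (Mkx and Tppp3) and 0.439 (Kera and Tppp3), with adjusted p-values of 0.264 and 0.177. Without the 2 farthest libraries their r was -0.036 and 0.742. For Kera and Tppp3 rho was 0.543 (permutation p = 0.0386, adjusted 0.0773), and r was 0.762 without day 7 contralateral replicate 1, 0.661 within naïve and 0.296 within the 9 others. The permutations were two-sided, and libraries that share mice make these p-values too small. The r values over the 15 libraries also take in differences between group means. Taken within groups, r was 0.825 for Tnmd and Kera and 0.696 for Tnmd and Tppp3. It was 0.586 for Mkx and Kera and 0.501 for Mkx and Tnmd, and for the pairs with Scx from -0.101 (Tppp3) to 0.324 (Tnmd).

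**Figure D3:**
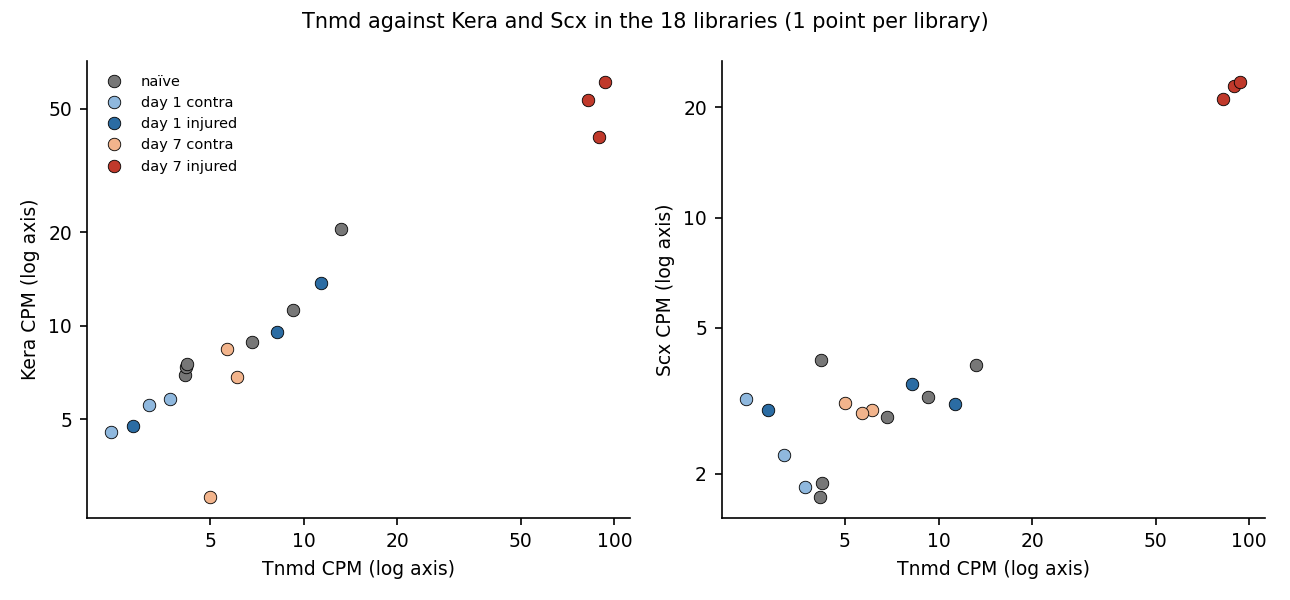
CPM of Tnmd against Kera (left) and Scx (right) on log axes, 1 point per library, coloured by group. Outside day 7 injury r was 0.811 for Tnmd and Kera (n = 15), with 1 day 7 contralateral library low in Kera at 2.80 CPM, and 0.435 for Tnmd and Scx; the difference between these was not tested.

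Naïve and day 1 injured libraries with high Tnmd and Kera were also high in adipocyte markers. The 7 adipocyte genes, of which Cfd was the most abundant in naïve libraries, summed to 806 CPM in naïve replicate 4 against a naïve median of 456 CPM, and in day 1 injured libraries to 754 CPM in replicate 1 and 184 CPM in replicate 2, where Tnmd was 11.3 and 2.83 CPM. Day 7 contralateral replicate 1 was an exception, with 747 CPM of adipocyte genes but 4.98 CPM of Tnmd and 2.80 CPM of Kera. In injured knees at day 7 they moved apart. The adipocyte sum was 210 ± 44.5 CPM (SD, n = 3) in injured libraries, against 495 ± 200.1 (n = 6) in naïve and 612 ± 135 (n = 3) in contralateral ones, and 4 of the 7 genes were called lower against naïve, with none higher, beside 6.11% and 10.4% of all genes. Skeletal muscle genes moved with Tnmd and Kera in part. Among naïve libraries their sum was lowest in replicate 5, at 3912 CPM, and highest in replicate 3, at 13160 CPM, where Tnmd was 4.17 and 6.80 CPM. Naïve replicate 4, the highest naïve library for Tnmd and Kera, had a lower muscle sum than naïve replicates 2 and 3. In day 1 injured replicates 1, 2 and 3 the muscle sum was 9904, 4370 and 15550 CPM. The part of adipose, muscle or other adjoining tissue in the levels of the members outside day 7 injury was not tested.

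Relatives of each member from the same gene family were compared with it in day 7 injured against naïve libraries. The closest relatives of Scx, Tnmd and Tppp3 were not called. Tcf15, a helix-loop-helix factor close to Scx, had a log2 fold change of -1.0 (SE 0.520, edgeR FDR 0.161) on 10 to 30 counts per day 7 injured library. Cnmd, chondromodulin, was at 45.0 ± 7.04 CPM in naïve (n = 6) and 56.6 ± 8.22 CPM in day 7 injured libraries (n = 3), a log2 fold change of 0.35 (SE 0.156, FDR 0.105). Tppp gave 0.21 (SE 0.277, FDR 0.598). Of the Iroquois genes, the homeobox relatives of Mkx, 4 passed the filter and none was called, with values from 0.13 (Irx5, SE 0.195) to 0.70 (Irx2, SE 0.507), and Irx1 and Irx2 had at most 18 counts in any library.

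The relatives of Kera, the small leucine-rich proteoglycans, behaved otherwise. Lum, encoding lumican, was at 770.6, 1024 and 1163 CPM in day 7 injured libraries against 106 to 149 CPM in naïve ones, and rose by a log2 fold change of 2.86 (SE 0.128, edgeR FDR 1.81e-09). Aspn rose by 4.22 (SE 0.274), Ogn by 2.55 (SE 0.277) and Bgn by 2.30 (SE 0.157). Fmod, Dcn and Prelp were called higher too, and Omd (0.09, SE 0.406) and Epyc (-0.07, SE 0.217) were not. Of the 21 relatives listed, 17 were tested and 7 called higher, all of them proteoglycans of this family, with none lower, beside the 10.4% and 6.11% of all genes. The median was 0.67 over those 17 and -0.04 over all genes. Against the day 7 contralateral libraries 7 of the 17 were called higher and none lower, again Lum, Prelp, Fmod, Ogn, Aspn, Dcn and Bgn, beside 9.33% and 3.23% of all genes.

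**Figure D4:**
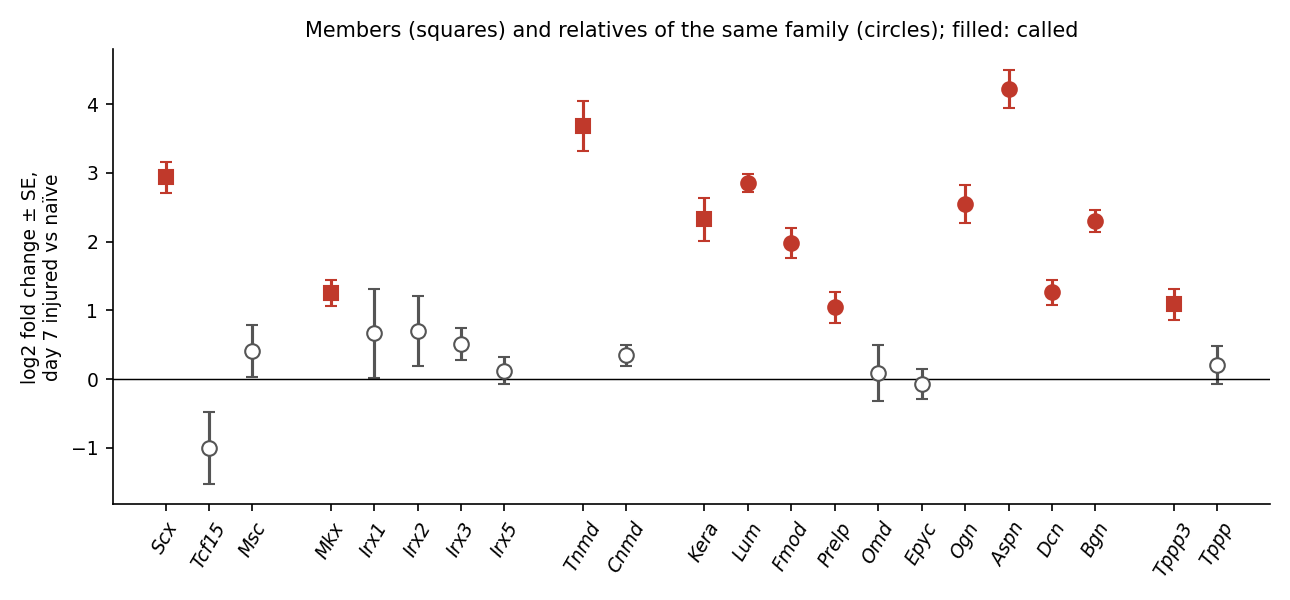
Log2 fold change and SE, day 7 injured against naïve, of the 5 members (squares) and of relatives from the same family (circles); filled symbols were called. All 17 relatives tested are shown. Kera and 7 of its 9 relatives are filled and Omd and Epyc open, as are Tcf15, Msc, 4 Irx genes, Cnmd and Tppp, from -1.0 to 0.70.

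Regulators known to act with Scx and Mkx in tendon were read from a list of 16 transcription factors, all tested. Of these 8 were called higher and none lower against naïve, beside 10.4% and 6.11% of all genes, with a median log2 fold change of 0.63 (all genes -0.04). The largest changes were in Nfatc4 (2.23, SE 0.136, edgeR FDR 2.15e-08), a calcium-dependent factor, Eya2 (1.54, SE 0.168), Sox9 (1.36, SE 0.186), the chondrocyte factor that marks attachment progenitors together with Scx, and Six2 (0.91, SE 0.254). Smad4, the shared Smad, had 0.49 (SE 0.0644, FDR 3.85e-05), under the 1.5-fold limit. Egr1 and Egr2, factors that raise tendon collagen, had values of 0.05 (SE 0.331) and 0.08 (SE 0.234), and these 3 genes are named after their values were seen. Against day 7 contralateral libraries 6 of the 16 were called higher and none lower, beside 9.33% and 3.23% of all genes.

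Of 21 signals of the tendon lineage, ligands and receptors of the TGF-β, BMP, FGF, PDGF and IGF pathways, 19 were tested, 12 called higher and none lower, with a median of 0.83, beside the same shares of all genes as for the regulators. Among ligands Gdf5, a joint-forming BMP family member, rose by 3.81 (SE 0.321, edgeR FDR 5.16e-07), Igf1 by 2.96 (SE 0.144), Gdf7 by 2.80 (SE 0.387) and Tgfb3 by 1.86 (SE 0.144) on the log2 scale. Fgf4 and Fgf8 did not pass the filter. Of 27 matrix genes of tendon 25 were called higher and none lower, beside 10.4% and 6.11% of all genes, with a median of 2.47. Fbn2, a fibrillin, rose by 4.42 (SE 0.203), Postn, periostin, by 4.29 (SE 0.433), Thbs2 by 3.90 (SE 0.181) and Col3a1 by 3.65 (SE 0.266). Cilp (-0.34, SE 0.394) and Cilp2 (0.15, SE 0.426), proteins of the cartilage intermediate layer, were not called. Collagens of this list are made by many connective tissue cells. Col1a1, the most abundant gene of this list in naïve libraries, rose by 2.05 (SE 0.248) and Col1a2 by 1.91 (SE 0.229) against naïve, but against day 7 contralateral libraries their values were 0.77 (SE 0.389, edgeR FDR 0.188) and 0.75 (SE 0.348, FDR 0.152) and were not called; both are named after their values were seen. Against day 7 contralateral libraries 11 of 19 signals and 22 of 27 matrix genes were called higher and none lower, beside 9.33% and 3.23% of all genes. At day 1 no gene of these lists was called against naïve, as 0% of all genes were.

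Of 20 chondrocyte markers tested, 4 were called higher (Acan, Sox9, Sox5 and Comp) and 2 lower (Chad and Cytl1) in day 7 injured against naïve libraries, beside 10.4% and 6.11% of all genes, with a median of 0.25. Comp and Sox9 stand in the tendon lists too. The chondrocyte sum was 8950 ± 870.4 CPM (n = 3) in day 7 injured and 6550 ± 1368 CPM (n = 6) in naïve libraries. It was 14860 CPM in day 7 contralateral replicate 1, where the tendon matrix sum was 90200 CPM but the members' sum was 48.4 CPM.

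Some markers of other connective tissue and vessel cells were higher in the same libraries. Of 15 markers of synovial fibroblasts 8 were called higher and none lower against naïve, beside 10.4% and 6.11% of all genes, with a median of 1.09. Sfrp1 (2.77, SE 0.296), Col15a1 (2.08, SE 0.190), Has1 (1.92, SE 0.696) and Thy1 (1.91, SE 0.159) moved most. Has1 was near the limit (edgeR FDR 0.0491) and was not called against day 7 contralateral libraries. Vcam1, the most abundant of the list in naïve libraries, had -0.28 (SE 0.0951, edgeR FDR 0.0358), under the 1.5-fold limit. Clic5 (-0.25, SE 0.464) and Dpp4 (-0.08, SE 0.154) were also below 0 and not called. The sum of the 15 rose from 868 ± 57.6 CPM (n = 6) in naïve to 1513 ± 132 CPM (n = 3) in day 7 injured libraries, where Col15a1 was the most abundant, against 856 ± 47.7 CPM in day 7 contralateral ones. Prg4, which synovial lining cells and surface chondrocytes express, had 0.65 (SE 0.425, edgeR FDR 0.266). Of 10 pericyte and smooth muscle markers 5 were called higher (Acta2, Mcam, Rgs5, Cspg4 and Tagln) and none lower, beside 10.4% and 6.11% of all genes. The median of the 10 was 0.66 and their sum 939 ± 101 CPM against 548 ± 71.2 in naïve libraries. Abcc9 (-0.01, SE 0.159) and Myh11 (-0.13, SE 0.431) were below 0 and not called. Of 9 endothelial markers 4 were called higher (Emcn, Tie1, Cdh5 and Pecam1) and none lower, beside the same 10.4% and 6.11%. The sum of the 9 was 680 ± 39.9 against 568 ± 38.8 CPM. Vwf, the most abundant of them in both groups, went the other way, with means of 195 against 255 CPM. Its log2 fold change was -0.37 (SE 0.116, edgeR FDR 0.0271), under the 1.5-fold limit. No marker of these 3 lists was at 0 counts throughout a group. The part of synovial, vascular or torn ligament tissue in the members' rise was not tested. Of 13 skeletal muscle markers 1 was called lower (Myh2) and none higher, beside 6.11% and 10.4% of all genes. Their sums were 3191, 5588 and 6832 CPM in day 7 injured libraries against a naïve median of 8772 CPM.

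**Figure D5:**
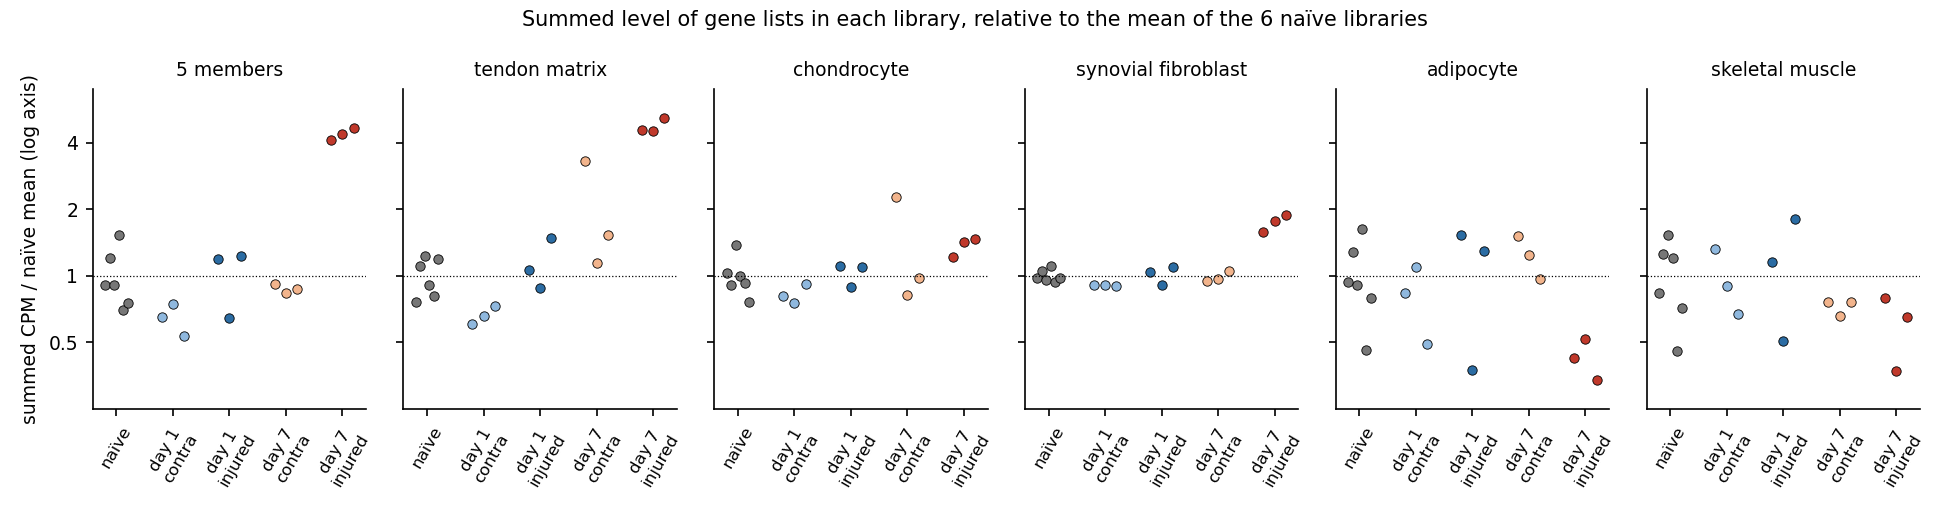
Summed CPM of the 5 members and of 5 gene lists in each library, divided by the mean of the 6 naïve libraries (log axis). The members' sum in day 7 injured libraries (216 to 246 CPM) lies above all others (at most 80.3 CPM), the synovial fibroblast sum rises less, and the adipocyte sum is low.

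Genes whose pattern was most like that of a member were found by Pearson r of log2 CPM over the 18 libraries among 16133 protein-coding genes. The spread over these libraries is carried mostly by the 3 day 7 injured ones, so r over the 15 others is given beside it. For Scx these were P4ha2, a collagen prolyl hydroxylase subunit (r = 0.991, and 0.896 over the 15), Ppfibp1 (0.985 and 0.872) and Selenon (0.983 and 0.889). For Mkx they were Ccdc149 (0.941 and 0.780), the proteoglycan Fmod (0.939 and 0.782) and Aig1 (0.935 and 0.801). For Tnmd they were the complement protease C1s1 (0.991 and 0.948), the hedgehog coreceptor Boc (0.985 and 0.936) and Cpxm2 (0.984 and 0.887). For Kera they were Fmod (0.979 and 0.924), Prickle2 (0.975 and 0.908) and Nid1, a basement membrane protein (0.970 and 0.888). For Tppp3 they were Fbln7 (0.963 and 0.914), Gas1 (0.963 and 0.911) and Cd34 (0.963 and 0.910). By the mean r to all 5 members, Armh4 (0.934), C1s1 (0.930), Col15a1 (0.928), Col14a1 (0.925) and Fmod (0.925) came first, with means over the 15 others from 0.669 to 0.722.

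Transcripts of each member were read from the same estimated counts. Tnmd and Kera have 1 annotated transcript each. Of the Scx counts, the transcript that codes for the protein held 68.8% ± 8.07 (SD, n = 3) in day 7 injured and 57.0% ± 11.7 (n = 6) in naïve libraries, and the rest fell to a transcript that retains an intron. The naïve share rests on 35 to 113 Scx counts per library. The difference was 11.9 percentage points (two-sided exact permutation p = 0.167). The most abundant Mkx transcript held 85.7% ± 7.81 and 78.9% ± 3.54 of the Mkx counts, a difference of 6.75 points (exact permutation p = 0.143). The most abundant Tppp3 transcript held 80.5% ± 8.93 in day 7 injured and 90.5% ± 2.08 in naïve libraries. The exact permutation p was 0.0476, or 0.143 after adjustment over the 3 transcripts, and the smallest p this design allows is 0.0238. Bop1, in whose span Scx lies, was at 27.4 ± 4.22 CPM in naïve (n = 6) and 33.7 ± 2.53 CPM in day 7 injured libraries (n = 3), a log2 fold change of 0.32 (SE 0.131, edgeR FDR 0.0782). The library kit marks strand, and whether the authors' counting used it was not given in the sources used here.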

How the data were processed

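RNA was sequenced from 18 pooled cartilage libraries, made with a stranded total RNA kit after removal of ribosomal RNA. After trimming, the authors assigned reads to mouse transcripts of GRCm38 by pseudoalignment (kallisto) and deposited, per transcript, expected (estimated) counts, TPM values and effective lengths. The labels name GRCh38, but the transcript identifiers are those of mouse. The estimated counts carried no normalization by the authors, and the deposited TPM values divide counts by length and library total. Transcripts were matched without version to GENCODE genes (135107 of 137436), summed and rounded, and the unmatched ones, holding 0.667% to 3.90% of the counts, were left out.

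Groups came from the labels. Tests were run in R 4.3.3 with edgeR 4.0.16, by quasi-likelihood, after TMM normalization and its filter on low counts, with a mean per group and no covariates. Comparisons without the day 7 contralateral group used the 15 other libraries, and the rest all 18. CPM values were scaled over all 18. DESeq2 1.42.0, limma 3.58.1 (voom) and other scalings, filters, thresholds and library sets were tried. On simulated counts with 200 genes changed 3-fold, 173 were recovered with 7 unchanged genes called between day 7 injured and naïve groups, and 144 with 12 between day 7 injured and contralateral groups. The simulated libraries were independent, with as many genes raised as lowered. The real ones share mice and differ in composition, so these counts do not give the error rates of the real comparisons. The study used limma-voom with the correlation between knees and removed 1 ACL library, not named, for its low mapping rate.

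The 5 genes and all lists (family relatives, tendon regulators, signals and matrix, and markers of chondrocytes, hypertrophic chondrocytes, synovial fibroblasts, pericytes and smooth muscle, endothelium, macrophages, marrow neutrophils, erythroid cells, skeletal muscle, osteoblasts and osteocytes, osteoclasts, adipocytes and Schwann cells) were chosen with earlier results of these data known. Named by rule were the 5 members in every comparison, their closest relatives, of other lists up to 4 called genes with the largest change, and the genes most like each member. Standard errors and SDs cover the spread between libraries, counting error included, and are wider for genes with few counts.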

Additional observations from a re-analysis of the deposited data

Results flagged for a closer look

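Kera in naïve replicate 4 was at 20.5 CPM, and the next naïve library at 11.3 CPM. This gap is 0.682 of the range of the 6 libraries, above Dixon's critical value for 6 samples, which chance alone passes in about 5% of groups, and the naïve levels of all 5 members were examined. Without that library the naïve mean of Kera was 8.40 ± 1.75 CPM (SD, n = 5) in place of 10.4 ± 5.18 (n = 6), and its log2 fold change in day 7 injured libraries 2.64 in place of 2.32.

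The effect of injury differed between day 7 and day 1, by the test of the difference itself with edgeR, for Scx (2.52 on the log2 scale), Tnmd (2.70) and Kera (2.25). The Tnmd call was lost in 2 and the Kera call in 9 of 12 omissions of a library, and at the same threshold Kera was also lost under 4 other settings, given below. At an FDR of 0.01 the Tnmd and Kera calls were both lost.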

How the results depend on the processing

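No paired analysis was possible because the labels do not say which libraries share mice. All 5 members were called higher in day 7 injured against naïve libraries under every alternative, namely relative-log-expression and upper-quartile factors, no filter, DESeq2, limma-voom, an offset for transcript length, other library sets, stricter and looser thresholds and each library left out, and under library totals without TMM, an alternative chosen after seeing the data. Between 4 and 5 were called against day 7 contralateral and against day 1 injured libraries, where Tppp3 was lost at an FDR of 0.01 (0.0114 and 0.0137) besides the settings given above, and 0 in the day 1 comparisons and in day 7 contralateral against naïve. For the difference between the injury effects of day 7 and day 1, 1 member was called higher at an FDR of 0.01 in place of 3, 2 with upper-quartile factors, the length offset or library totals, and 4 with DESeq2, which added Mkx (FDR 0.0335). With only the groups compared in the fit, Mkx was called (FDR 0.0389) and Kera was not (0.0507). Kera was also not called with upper-quartile factors (0.0635), the length offset (0.0613) or library totals (0.128). Leaving out 1 library gave 1 to 3 members. Values that changed sign were not called in any setting. In day 1 injured against naïve libraries Mkx was -0.043 with the length offset, and leave-one-out log2 fold changes ran from -0.006 to 0.235 for Scx, -0.047 to 0.172 for Mkx, -0.33 to 0.50 for Tnmd, -0.54 to 0.17 for Kera and -0.17 to 0.31 for Tppp3. In day 7 contralateral against naïve libraries Scx was -0.024 with upper-quartile factors and -0.13 with library totals (leave-one-out -0.093 to 0.135), and Tppp3 -0.036 and -0.165 (-0.158 to 0.127). Over the settings the genes called higher and lower ranged from 1268 to 3960 and 472 to 4556 in day 7 injured against naïve, 1435 to 2650 and 251 to 1357 against day 7 contralateral and 793 to 3427 and 382 to 6042 against day 1 injured libraries, and from 252 to 1090 and 3 to 196 for the difference of effects. Scaling moved the median over all genes in the first of these, on the log2 scale, from -0.04 to -0.21 with upper-quartile factors and -0.35 with library totals. The causes were not tested. Low counts limit Tcf15, Irx1, Irx2 and, outside day 7 injury, Scx and Mkx.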

Other observations

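Lists not described above were counted in day 7 injured against naïve libraries, beside 10.4% of all genes called higher and 6.11% lower by edgeR. Of 7 hypertrophic chondrocyte markers only Mmp13, a collagenase, was called, with a log2 fold change of 0.88 (SE 0.223), and Col10a1 had -0.02 (SE 0.296). Of 6 osteoclast markers Ctsk, the bone-resorbing protease, was called higher (1.25, SE 0.157), and of 10 osteoblast and osteocyte markers Ibsp was higher (0.69, SE 0.117) while Sost (-0.96, SE 0.224), a Wnt inhibitor of osteocytes, and Mepe (-0.61, SE 0.136) were lower. No marker of 9 for macrophages or 6 for Schwann cells was called.

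Blood and marrow genes that were called were lower. Of 8 erythroid genes tested 5 were called lower, among them Alas2 (-0.73, SE 0.158), the first enzyme of haem synthesis, and of 9 marrow neutrophil genes S100a8 (-0.67, SE 0.199) and S100a9 (-0.63, SE 0.227). Among adipocyte genes Retn (-2.41, SE 0.765), Lep (-1.85, SE 0.599), Cidec (-1.75, SE 0.541) and Cfd (-1.58, SE 0.462) were lower.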
